A study of Mus musculus with 6 samples.

Results

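The 60 genes described here mostly encode proteins that find and mend DNA damage or halt the cell cycle while it is mended. They were measured in a mouse macrophage line 4 h after bacterial lipopolysaccharide. They were taken by symbol, from gene families such as Rad, Brca, Fanc, Xrcc, Ercc, Msh and Parp and from single genes such as Atm, Atr, Chek1 and Chek2, and the rule uses no measured value. It also takes in genes with little or no known part in repair, such as Fancd2os and Rad54l2. The symbols matched 75 of the 16281 probes of the value table, for 60 of the 10698 genes named there. Of these genes, 58 had a value on all 6 arrays, through 69 probes, and the other 2, Exo1 and Parp8, are given separately.

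Cells mend DNA by several routes that share few proteins. Broken ends are rejoined from the intact sister copy (homologous recombination, which works in S and G2 phase) or ligated directly (end joining), crosslinks are opened by the Fanconi anaemia proteins, and damaged, bulky or mispaired bases are removed by base excision, nucleotide excision and mismatch repair. The kinases ATM and ATR sense breaks and stalled replication forks and act through CHK2 and CHK1 to hold the cell cycle. Many of these genes are transcribed most in dividing cells, and macrophages activated by lipopolysaccharide also make reactive oxygen and nitrogen species that can damage DNA.

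Both groups were RAW 264.7 cells (also written RAW 264.4 in the labels), an established line derived from a virus-induced mouse tumour. One group was left untreated and the other received lipopolysaccharide (LPS, 100 ng/ml) together with LPS-binding protein (LBP, 100 pM), and total RNA of each was taken at 4 h. Every one of the 6 arrays carried RNA of both groups, with treated RNA in the dye Cy5 on 3 arrays and in Cy3 on the other 3, and each orientation has sets 1 to 3. Each value below is the log2 of treated RNA over untreated RNA, averaged over 3 sets with their SD (n = 3), where a set is itself the mean of its 2 orientations; 1 log2 unit is a doubling. The direction is the likely one, read from the labels that call the Cy5 RNA the test, and the opposite reading would turn every sign. No label says whether the sets were grown separately, so the p-values rest on the spread of these samples alone, and that spread may be technical.

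As a check of the arrays, all 12 interferon-stimulated genes of a list were higher in this reading. Exact zeros, taken as not measured, made up 1254 to 2086 of the 16281 values of an array. With ratios only, no level of a gene can be given, and the arrays' number limits the precision.

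Many DNA repair and checkpoint genes had less RNA in treated cells, by small amounts. Of the 58 genes, 30 fell and 3 rose at a limma adjusted p below 0.05, and 25 did not pass. The background was 15.0% of 11364 features lower and 14.0% higher, against 51.7% and 5.17% of the members. The median member was at -0.17, while the median of all features was at 7.9e-04. Of the 30 falls, only 3 reached 1.5-fold, those of Brca1, Chek2 and Ddb2, and 13 reached 1.25-fold. The rises were those of Parp14 (6.04-fold), Parp9 (3.05-fold) and Ercc1 (1.36-fold). All 6 arrays lay below 0 for 23 of the 58 members, against 13.3% of all features. In bulk RNA, fewer cells holding a transcript and less of it per cell cannot be told apart.

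**Figure D1:**
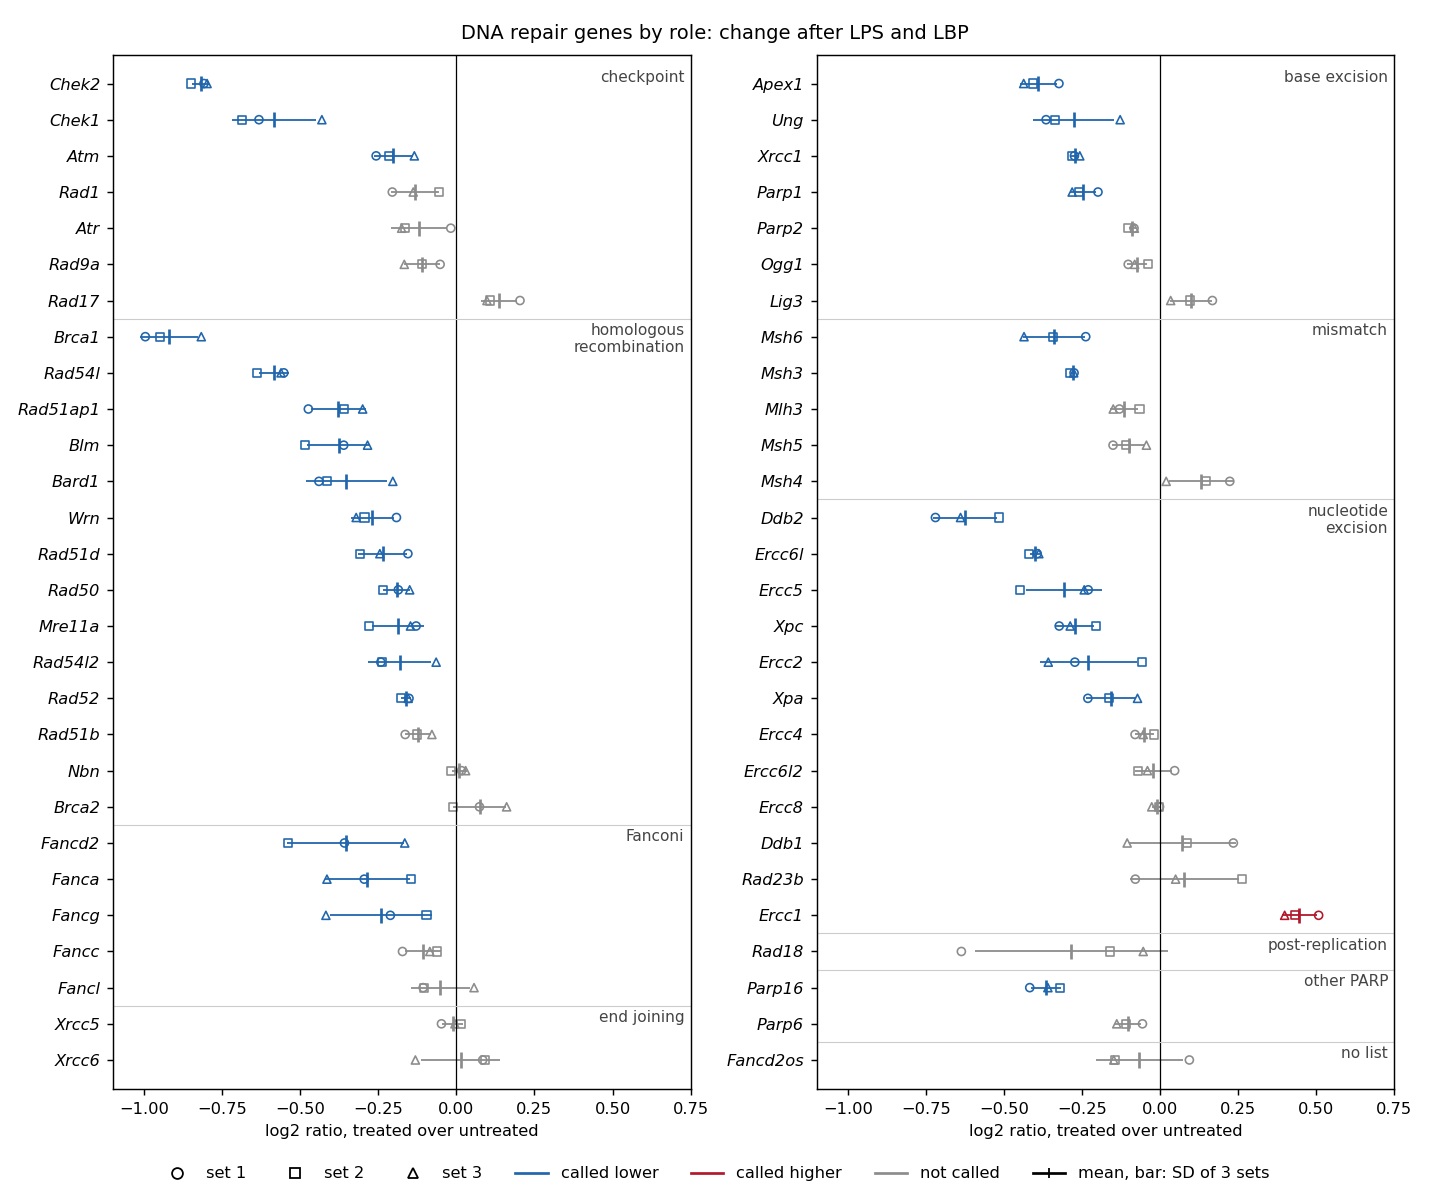
Log2 ratio of treated over untreated RNA (x axis) for 56 DNA repair and checkpoint genes (rows, grouped by role), with 1 open symbol per set, a tick at the mean and a bar of 1 SD of the 3 sets. Blue marks the 30 genes called lower and red the gene called higher, Ercc1; Parp9 (1.61) and Parp14 (2.59) lie outside the axis and are not drawn.

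Among the checkpoint genes, 3 of 7 fell and 0 rose, and the falls were those of the effector kinases Chek2 and Chek1 and of the sensor kinase Atm. For Chek2, whose product halts the cycle after double-strand breaks, the arrays with treated RNA in Cy5 gave -0.87, -1.03 and -0.85 in sets 1 to 3 and those with it in Cy3 gave -0.74, -0.67 and -0.75. All 6 were low, each Cy5 array lower than every Cy3 array, and the fall was -0.82 ± 0.028 (1.76-fold, limma adjusted p = 9.32e-06). Chek1, the kinase that acts below ATR at stalled forks, was less even. Its values were -0.63, -1.54 and -0.55 with treated RNA in Cy5 and -0.64, 0.17 and -0.31 with it in Cy3. Set 2 thus held both the lowest and the only positive array, and the mean fall was -0.58 ± 0.13 (adjusted p = 0.000264). Neither orientation alone passed for Chek1 (adjusted p = 0.0508 for Cy5 and 0.294 for Cy3).

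Atm, the kinase that responds to broken ends, had values of -0.23, -0.20 and -0.10 in Cy5 and -0.28, -0.23 and -0.17 in Cy3. Every array was slightly below 0, for a fall of -0.20 ± 0.062 (limma adjusted p = 0.0129) that did not pass without set 1 (adjusted p = 0.0729). Atr, its partner kinase at stalled forks, was at -0.12 ± 0.088 (adjusted p = 0.117), with all 3 Cy5 arrays negative and 2 of 3 Cy3 arrays positive. The genes of the sliding clamp that is loaded at damage, Rad1 (-0.13 ± 0.075) and Rad9a (-0.11 ± 0.057), did not pass, and neither did that of its loader, Rad17, at 0.14 ± 0.059 (adjusted p = 0.0754, 0.114 and 0.0587). Fitted to the 6 arrays with no set block, Rad17 passed as higher and Rad1 as lower (limma adjusted p = 0.0314 and 0.0456). Rad17 also passed on the Cy3 arrays alone (0.0318), while its Cy5 mean was -0.0047.

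Homologous recombination held the most falls, with 10 of 13 genes lower and 0 higher, and a median of -0.24, leaving aside Rad54l2, which shares little but its name with this route. Brca1, the ubiquitin ligase subunit that promotes resection of broken ends, had values of -0.95, -0.91 and -0.80 with treated RNA in Cy5 and -1.05, -0.99 and -0.83 with it in Cy3. No array came near 0, and the mean of -0.92 ± 0.093 (1.89-fold, limma adjusted p = 1.23e-05) placed Brca1 as the 17th largest fall among 9574 named genes. Chek2 was the 28th. Bard1, the obligate partner of BRCA1, fell by less, at -0.35 ± 0.13 (adjusted p = 0.00297). Its arrays ranged from -0.74 to -0.14, and neither orientation passed alone.

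Rad54l, a motor protein that helps a broken end invade the sister copy, gave -0.44, -0.53 and -0.43 in Cy5 and -0.66, -0.75 and -0.69 in Cy3. The Cy3 arrays were all lower than the Cy5 arrays, and the mean fall was -0.58 ± 0.047 (limma adjusted p = 6.18e-05). Rad51ap1, which stimulates the same step, fell to -0.38 ± 0.088, and the helicase gene Blm, which takes recombination intermediates apart, to -0.38 ± 0.10 (adjusted p = 0.000994 and 0.00127). Both were negative on all 6 arrays.

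Wrn, the gene of a related helicase, was called lower at -0.27 ± 0.068 (limma adjusted p = 0.00387), yet its orientations had opposite signs. Its arrays read -0.51, -0.72 and -0.50 in Cy5 and 0.12, 0.13 and -0.14 in Cy3. The Cy5 mean was thus -0.57 and the Cy3 mean 0.035. Smaller falls were called for Rad51d (-0.24 ± 0.077), Rad50 (-0.19 ± 0.043), Mre11a (-0.19 ± 0.083) and Rad52 (-0.16 ± 0.015). RAD50 and MRE11 form the complex that first binds broken ends, and RAD52 assists annealing of single strands. Rad54l2 (-0.18 ± 0.10) was called too; it is named for its likeness to Rad54l and is better known as a cofactor of nuclear receptors. Several of these calls were lost without 1 set: Rad52 without any one of sets 1 to 3 (adjusted p = 0.085, 0.107 and 0.0553), Mre11a without set 2 (0.157) or set 3 (0.0574), Rad54l2 without set 1 (0.149) or set 2 (0.112), and Rad50 without set 2 (0.0715). Fitted to the 6 arrays with no set block, Rad51d (adjusted p = 0.13) and Rad54l2 (0.117) did not pass either.

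Nbn, the third member of the end-binding complex, was at 0.0093 ± 0.025 (limma adjusted p = 0.9), from -0.16, -0.39 and -0.11 in Cy5 and 0.20, 0.36 and 0.17 in Cy3. The orientations had opposite signs in every set. Rad51b, a recombination gene, was at -0.12 ± 0.043 (adjusted p = 0.0727). Exo1, the exonuclease that resects ends and also serves mismatch repair, was listed at exactly 0 on 1 array and was left out of the counts above. Its Cy5 arrays read -0.97, -1.04 and -0.76, and the Cy3 arrays of sets 2 and 3 read -1.0 and -0.81. In the 2 complete sets it was at -0.90 ± 0.17 (SD, n = 2; adjusted p = 0.000233 when limma was run on all genes with 2 or more complete sets), close to the value of Brca1.

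Brca2, which prepares single-stranded DNA for recombination, did not pass at 0.075 ± 0.085 (limma adjusted p = 0.313), but its 2 probes changed in opposite directions. The probe annotated to U65594 was at -0.61 ± 0.094 (adjusted p = 9.11e-05 in the fit of single probes) and ran from -0.87 to -0.52 over the 6 arrays. The probe annotated to NM_009765 was at 0.76 ± 0.083 (adjusted p = 2.52e-05), with 0.37, 0.23 and 0.66 in Cy5 and 1.10, 1.17 and 1.06 in Cy3. The 2 probes did not overlap on any array, so the gene has no settled direction here, and which probe reports Brca2 RNA was not tested. Probe sequences were not used here.

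**Figure D2:**
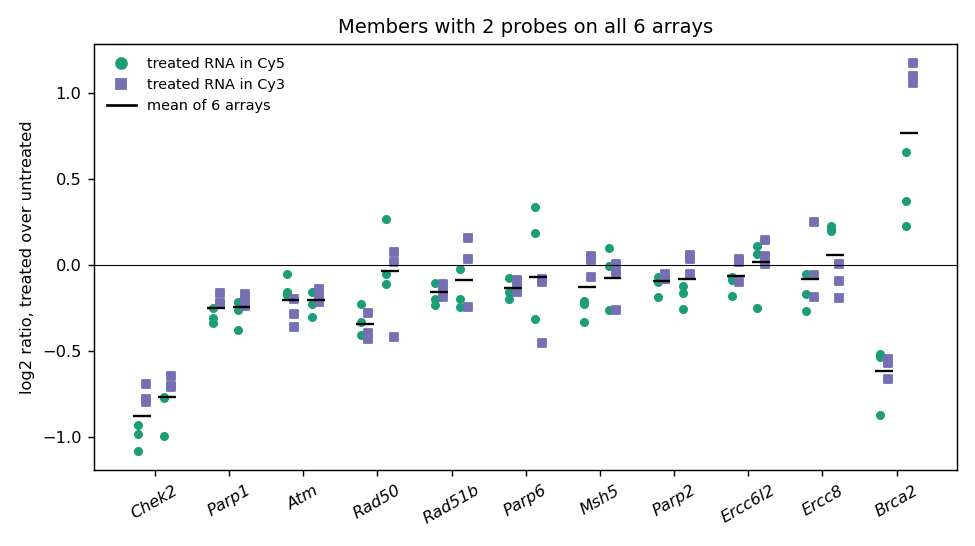
Log2 ratio of treated over untreated RNA (y axis) for the 11 member genes that had 2 probes on all 6 arrays, with 1 column of points per probe, circles for treated RNA in Cy5, squares for it in Cy3 and a line at the mean of 6 arrays. The probes of Brca2 lie on opposite sides of 0, at -0.61 and 0.76, while those of the other 10 genes differ by at most 0.31. The probe means of Ercc8 and Ercc6l2 also lie on both sides of 0, by small amounts.

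Repeat probes of the other genes differed by at most 0.31. Those of Ercc8 (-0.081 and 0.060) and Ercc6l2 (-0.063 and 0.021) lay on both sides of 0, and none of them was called. Of the Rad51b probes, at -0.16 and -0.087, only the first was called (limma adjusted p = 0.0372 and 0.312 in the fit of single probes). Probe means of Atm differed by 0.0012, those of Parp1 by 0.0096 and those of Chek2 by 0.11. The widest gap after Brca2 was that of Rad50, at -0.34 ± 0.08 and -0.037 ± 0.043, of which only the first was called. A second Chek1 probe had a value on 1 array alone (-2.56, treated RNA in Cy5, set 2), and a second Lig3 probe on 2 Cy3 arrays (1.38 and 0.91). Neither entered the test. The second probes of Mre11a and Rad1 were listed at exactly 0 on all 6 arrays.

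Since many members moved together, the stretch before their starts was read for short motifs. RefSeq promoters (GRCm38.p6, 250 bases before to 50 after the start, 1 per gene) were found for 46 of the 58 genes, among them 22 of the 30 that fell. The motif TTTNNCGC is a loose, E2F-like pattern, so a match need not be a site that E2F factors of the S phase programme bind. It was found on either strand in 6 of the 22 that fell (27.3%) and in 4 of 23 members not called, against 5.27% of 27025 promoters. These matches are shown with their flanks, on the gene's strand, with the match in capitals; the matches of Msh3 overlap one another on opposite strands and its first is given, and those of Chek2 appear in its whole promoter further on.
Fancg, chr4:43010335-43010364, minus strand: tttcttttcagTTTCCCGCggaaccgtctc
Bard1, chr1:71103163-71103192, minus strand: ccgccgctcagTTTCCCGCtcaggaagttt
Bard1, chr1:71102923-71102952, minus strand: gtccttccatctctgagtTTTACCGCgttt
Msh6, chr17:87975054-87975083, plus strand: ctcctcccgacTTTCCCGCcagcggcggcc
Msh3, chr13:92355187-92355216, minus strand: ttgccgtcaagTTTGGCGCgaaatcgcagc
Ercc5, chr1:44147556-44147585, plus strand: gtgcaaacactTTTTGCGCctaacagtcag
In Fancg, Bard1 and Msh6 the match has the same letters, TTTCCCGC. It begins 52 bases before the start in Fancg, 209 before it in Bard1, which holds another match 38 bases after it, and 15 after it in Msh6. A match of letters describes the sequence and does not show that a factor binds there.

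The promoters of the 3 largest falls that the table lists, and of the only rise it lists, are printed whole so that they can be set side by side, with TTTNNCGC matches in capitals.
Chek2 promoter, GRCm38.p6 chr5:110839733-110840032, plus strand: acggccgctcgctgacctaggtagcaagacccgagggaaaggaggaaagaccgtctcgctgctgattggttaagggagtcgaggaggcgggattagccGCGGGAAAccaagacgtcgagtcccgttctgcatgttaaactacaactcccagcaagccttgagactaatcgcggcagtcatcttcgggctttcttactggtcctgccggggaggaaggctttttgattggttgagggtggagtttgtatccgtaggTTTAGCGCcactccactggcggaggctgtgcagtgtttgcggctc
Brca1 promoter, GRCm38.p6 chr11:101551906-101552205, minus strand: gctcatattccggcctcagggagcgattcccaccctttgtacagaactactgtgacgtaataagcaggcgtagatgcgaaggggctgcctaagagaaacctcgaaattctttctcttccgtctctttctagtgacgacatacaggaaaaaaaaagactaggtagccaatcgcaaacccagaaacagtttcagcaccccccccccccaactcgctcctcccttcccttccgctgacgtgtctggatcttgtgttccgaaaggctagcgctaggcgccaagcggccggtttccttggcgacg
Rad54l promoter, GRCm38.p6 chr4:116123641-116123940, minus strand: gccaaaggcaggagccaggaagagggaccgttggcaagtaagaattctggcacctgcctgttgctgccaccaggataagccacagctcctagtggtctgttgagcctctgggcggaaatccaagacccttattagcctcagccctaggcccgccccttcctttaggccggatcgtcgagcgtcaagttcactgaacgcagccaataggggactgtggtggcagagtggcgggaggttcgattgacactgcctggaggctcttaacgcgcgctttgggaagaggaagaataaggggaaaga
Ercc1 promoter, GRCm38.p6 chr7:19344821-19345120, plus strand: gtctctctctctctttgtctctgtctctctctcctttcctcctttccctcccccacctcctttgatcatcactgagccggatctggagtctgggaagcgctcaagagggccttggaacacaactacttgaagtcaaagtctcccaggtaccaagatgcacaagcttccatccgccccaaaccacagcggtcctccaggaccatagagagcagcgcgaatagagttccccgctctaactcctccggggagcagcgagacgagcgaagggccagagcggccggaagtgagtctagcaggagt
Chek2 holds 2 matches, GCGGGAAA beginning 152 bases before the start and TTTAGCGC beginning 5 after it, while Brca1, Rad54l and Ercc1 hold 0. The interferon response motif, GAAA and GAAA with 2 bases between them, was found in 4 of the 46 members (8.7%), against 3.49% of all promoters. Of these, 3 were among the 22 that fell (Chek1, Fancg and Xrcc1, 13.6%) and 1 among the 23 not called. The NF-κB motif, GGGA and TTTCC with 1 base between them, was found in 0 of the 46 (0.385% of all promoters). The cell cycle motif TTTGAA was found in 3 (6.52%, against 18.1%) and the STAT motif TTCNNNGAA in 3 (6.52%, against 8.47%). Among the 22 that fell, TTTGAA and TTCNNNGAA were each found in 2 (9.09%). Overlaps between different motifs were not removed, and no test was made of these shares.

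Fanconi anaemia genes, whose products open DNA crosslinks ahead of recombination, fell in 3 of 5 cases and rose in 0. Fancd2, the protein that is ubiquitinated at a crosslink, was at -0.35 ± 0.19 (limma adjusted p = 0.00767), with arrays of -0.41, -0.99 and -0.22 in Cy5 and -0.31, -0.092 and -0.11 in Cy3. All were negative, and set 2 in Cy5 was far below the others. The core complex genes Fanca (-0.28 ± 0.14) and Fancg (-0.24 ± 0.16) also fell (adjusted p = 0.00872 and 0.027), and Fancg did not pass without set 3 (0.0946). Fancd2 and Fanca passed in neither orientation alone (adjusted p = 0.0853 and 0.148 for Fancd2 in Cy5 and Cy3, 0.0683 and 0.201 for Fanca). Fancc, of the same complex, was at -0.11 ± 0.058 and the ubiquitin ligase gene Fancl at -0.051 ± 0.093 (adjusted p = 0.125 and 0.511). Fancd2os, a gene that overlaps Fancd2 and is no known repair gene, was at -0.066 ± 0.14 (adjusted p = 0.471). Rad18, which marks the replication clamp so that forks can pass damage, was spread too widely to be called, at -0.28 ± 0.31 (adjusted p = 0.0807). Set 1 stood apart in it at -0.64, against -0.16 and -0.054. Without set 2 the mean of -0.35 passed (limma adjusted p = 0.000315), although the 2 sets left, at -0.64 and -0.054, were far apart. That fit gave adjusted p as low as 4.72e-45 (Parp14) from 2 sets, so a pass in it is weak evidence.

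Base excision and single-strand break repair had 4 falls and 0 rises among 7 genes, with a median of -0.25. Apex1, the nuclease that cuts at sites that have lost their base, gave -0.28, -0.33 and -0.48 in Cy5 and -0.37, -0.48 and -0.39 in Cy3. All 6 values were negative, those of the dyes overlapped, and the mean was -0.39 ± 0.059 (limma adjusted p = 0.000558). Xrcc1, the scaffold that gathers the enzymes at a nick, was the most even of the group, between -0.29 and -0.25 on the 6 arrays (-0.27 ± 0.013, adjusted p = 0.00222). Parp1, which senses nicks and builds poly(ADP-ribose) there, fell to -0.25 ± 0.043 (adjusted p = 0.00431).

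Ung, the glycosylase that removes uracil, was at -0.28 ± 0.13 (limma adjusted p = 0.00911), from -0.29, -0.32 and 0.019 in Cy5 and -0.44, -0.35 and -0.27 in Cy3. Set 3 in Cy5 lay just above 0 and the other 5 arrays below it. Ogg1, which removes the oxidised base 8-oxoguanine, was at -0.074 ± 0.032 (adjusted p = 0.248), with 0.11, 0.14 and 0.099 in Cy5 and -0.32, -0.22 and -0.26 in Cy3, which are of opposite sign in every set. Parp2 (-0.089 ± 0.011), a relative of Parp1, and the ligase gene Lig3 (0.099 ± 0.067) did not pass (adjusted p = 0.162 and 0.16).

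Mismatch repair genes fell in 2 of 5 cases. Msh6 and Msh3 encode proteins that read single mispairs and small loops. Msh6 gave -0.39, -0.44 and -0.57 in Cy5 and -0.088, -0.25 and -0.30 in Cy3. Msh3 gave -0.38, -0.42 and -0.43 in Cy5 and -0.17, -0.15 and -0.13 in Cy3. In both, every array was negative and every Cy5 array was lower than its Cy3 partner of the same set. The falls were -0.34 ± 0.099 and -0.28 ± 0.0066 (limma adjusted p = 0.00207 and 0.00188), and neither passed on the Cy3 arrays alone (adjusted p = 0.0851 and 0.114). Mlh3 was at -0.12 ± 0.044, and the genes of the meiotic pair were at -0.10 ± 0.054 (Msh5) and 0.13 ± 0.10 (Msh4), none of them called (adjusted p = 0.0903, 0.14 and 0.107). Without set 3, Msh4 was at 0.19 and passed (adjusted p = 0.0479).

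Nucleotide excision repair split in direction, with 5 falls and 1 rise among 11 genes and a median of -0.051, leaving aside Ercc6l, which shares only part of its name with this route. Ddb2, which finds ultraviolet damage in chromatin, gave -0.90, -0.77 and -0.75 in Cy5 and -0.54, -0.26 and -0.52 in Cy3. Each Cy5 array was lower than every Cy3 array, and the mean of -0.62 ± 0.10 (1.54-fold, limma adjusted p = 0.000101) was the third largest fall of the 58 genes. Ddb2 overlaps Acp2 in the RefSeq table, which was at 0.29 ± 0.077 (adjusted p = 0.00334). The partner of DDB2, Ddb1, which also serves other ubiquitin ligases, was at 0.072 ± 0.17 (adjusted p = 0.485). Xpc, the other damage finder, fell to -0.27 ± 0.061 (adjusted p = 0.00336), while Rad23b, which stabilises XPC, was at 0.078 ± 0.17 (adjusted p = 0.451).

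Ercc1 was the rise in this route. It encodes the partner of the XPF nuclease that cuts on one side of the lesion, and it gave 0.37, 0.13 and 0.31 in Cy5 and 0.65, 0.73 and 0.49 in Cy3. All arrays were positive, the Cy3 arrays more so, and the mean was 0.45 ± 0.056 (limma adjusted p = 0.000266), a call that ended on the Cy5 arrays alone (adjusted p = 0.0729). In the RefSeq table Ercc1 overlaps another gene, Cd3eap, and which transcript the probe reads was not tested. Ercc4, the gene of XPF itself, was at -0.051 ± 0.031 (adjusted p = 0.439). The difference between these subunits was not tested.

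Ercc5, the nuclease of the opposite side, was at -0.31 ± 0.12 (limma adjusted p = 0.00499), with -0.33, -0.94 and -0.32 in Cy5 and -0.13, 0.038 and -0.16 in Cy3. Set 2 in Cy5 was again far below the rest, and neither orientation passed alone (adjusted p = 0.0699 for Cy5 and 0.412 for Cy3). The helicase gene Ercc2 (-0.23 ± 0.16) and the damage verifier gene Xpa (-0.16 ± 0.08) had small falls. Ercc2 did not pass without set 1 (0.0701) or set 3 (0.142), and Xpa without set 1 (0.25) or set 2 (0.116). Ercc6l, which encodes a helicase of mitotic chromosomes, fell to -0.40 ± 0.017 (adjusted p = 0.000322) and was negative on all arrays. Ercc6l2 (-0.021 ± 0.061) and Ercc8 (-0.01 ± 0.014), the latter of transcription-coupled repair, were not called (adjusted p = 0.779 and 0.888).

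Among the members, end joining was represented by the genes of the Ku pair, which caps broken ends before they are ligated, and 0 of 2 were called. Xrcc5 was at -0.012 ± 0.033 and Xrcc6 at 0.014 ± 0.13 (limma adjusted p = 0.867 and 0.884). Xrcc5 stayed between -0.12 and 0.15 on the 6 arrays. Xrcc6 ran from -0.38 to 0.55 with no common sign, and its set means were 0.084, 0.09 and -0.13.

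Of the 4 other PARP genes that were measured, Parp14 and Parp9 rose, by more than any other member, 1 fell and 1 was not called. PARP14 and PARP9 transfer ADP-ribose and are best known as interferon-induced regulators of antiviral transcription, PARP9 together with the ubiquitin ligase DTX3L. Parp14 gave 2.72, 2.13 and 2.79 in Cy5 and 2.61, 2.80 and 2.51 in Cy3, a rise of 2.59 ± 0.11 (6.04-fold, limma adjusted p = 1.51e-07). Parp9 gave 1.82, 1.88 and 1.38 in Cy5 and 1.62, 1.61 and 1.35 in Cy3, a rise of 1.61 ± 0.21 (3.05-fold, adjusted p = 6.42e-06). No array of either gene came near 0, and they were the 39th and 111th largest rises among 9574 named genes. In the RefSeq table they are close neighbours, with only Dtx3l, which overlaps Parp9, and 2 pseudogenes between them. All 12 measured genes of a list of interferon-stimulated genes rose as well, from 1.99 (Irf7) to 4.36 (Rsad2), with a median of 3.63. Parp16, an enzyme of the endoplasmic reticulum, went the other way, at -0.37 ± 0.049 (adjusted p = 0.000672), and Parp6 was at -0.10 ± 0.042 (adjusted p = 0.127). Parp8 had values on 2 arrays only, both of set 1 (-0.17 and -0.087), and was not tested.

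**Figure D3:**
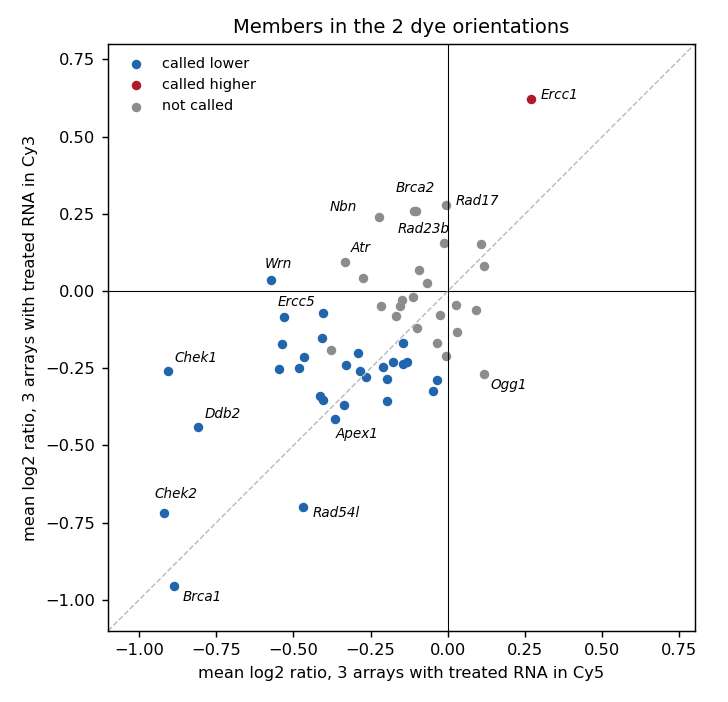
Mean log2 ratio of the 3 arrays with treated RNA in Cy5 (x axis) against that of the 3 with it in Cy3 (y axis) for 56 member genes (Parp9 and Parp14 lie outside the axes), blue where called lower, red where called higher and grey where not called; the dashed line marks equal values. Brca1, Chek2 and Rad54l lie low on both axes, whereas Wrn lies at -0.57 on one and 0.035 on the other.

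The dye orientations bore on these values by gene. Their means had opposite signs for 14 of the 58 members (24.1%), against 49.3% of all features, and for 1 of the 33 called members, Wrn. Of the called members, 10 had at least 1 array of the other sign. Bard1, Chek1, Ercc2, Ercc5, Fanca, Fancd2, Rad50, Rad51d, Rad54l2 and Xpa, 10 of the 33, passed in neither orientation alone. Arrays of 1 set deviated in opposite directions in sets 1 and 2 (correlations of -0.48 and -0.51), which cancels in a set mean, so that an SD over sets can be smaller than the spread over arrays. For Chek1 the limma adjusted p was 0.0313 with no set block, against 0.000264 over sets. On the Cy5 arrays alone 16 members were lower, against 7.87% of features, and on the Cy3 arrays alone 16, against 9.49%. Treated RNA in Cy5 in set 2 gave the lowest of the 6 values for 9 of the 30 members that fell (30%), against 36.9% of all features called lower. Treated RNA in Cy3 in set 1 also gave the lowest value for 9 of the 30, against 15.5% of those features. Without set 2, 26 members were lower, against 12.9% of features. That fit rests on 2 sets and gave limma adjusted p as low as 4.72e-45 (Parp14), so its passes are weak evidence. Of the 33 called members, 12 passed under every alternative setting of the gene fit other than the test against a 1.5-fold change: Brca1, Chek2, Ddb2, Rad54l, Ercc6l, Apex1, Rad51ap1, Blm, Xpc, Xrcc1, Parp9 and Parp14. No share over all called features was computed for this count. Nor was it for the counts above of called members with mixed signs or without a pass in either orientation. In the test against a 1.5-fold change, Brca1 and Chek2 were lower (limma adjusted p = 0.00537 and 0.0156) and Parp9 and Parp14 higher, against 0.308% of features lower and 2.30% higher.

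Repair genes that the symbols did not cover were read from a further list. Of 54 measured, 29 fell (53.7%) and 2 rose, with a median of -0.17. The largest falls were those of Wee1, the kinase that restrains entry into mitosis (-0.78 ± 0.059), Tdp2, which frees DNA ends from trapped topoisomerase (-0.74 ± 0.033), and Rpa2, of the protein that coats single strands (-0.74 ± 0.081), with limma adjusted p from 1.61e-05 to 3.14e-05. Cdc25a, a phosphatase that CHK1 and CHK2 target for removal, was not called at -0.13 ± 0.066 (adjusted p = 0.0687). The 2 rises were small, those of the gap-filling polymerase genes Polm (0.19 ± 0.083) and Poll (0.17 ± 0.012), both of end joining and named after their values were seen (adjusted p = 0.0226 and 0.0171). Other end joining genes of this list did not rise. Prkdc was called lower at -0.31 ± 0.019 and Nhej1 was not called at -0.11 ± 0.045 (limma adjusted p = 0.00115 and 0.106). They too were named after their values were seen. Poll was at 0.36 in Cy5 and at -0.012 in Cy3, so its orientations had opposite signs.

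Genes of S phase and replication mostly fell. Of 26 measured, 24 fell (92.3%) and 0 rose, with a median of -0.35, led by Tk1 (-1.12 ± 0.076), Gmnn (-1.12 ± 0.16) and Cdc6 (-0.84 ± 0.13), while Pold1 (0.03 ± 0.081) did not pass (limma adjusted p = 0.704). Tk1 encodes an enzyme that supplies building blocks of DNA, and Cdc6 and Gmnn proteins that license replication and restrain that licensing. Their part in the falls of the repair genes was not tested.

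**Figure D4:**
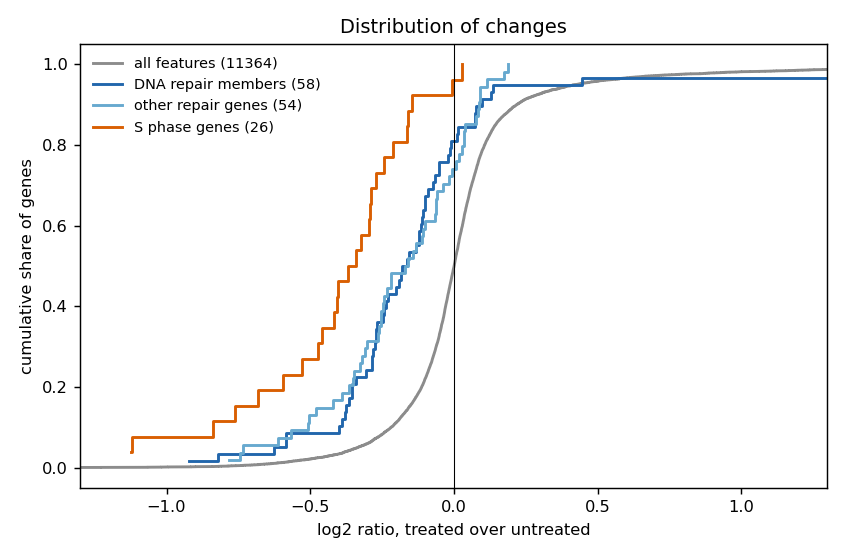
Cumulative share of genes (y axis) at or below each log2 ratio of treated over untreated RNA (x axis, which leaves out the largest changes) for all 11364 features, the 58 DNA repair members, 54 other repair genes and 26 S phase genes. Below 0 the curves of the members and of the other repair genes lie to the left of that of all features, with medians of -0.17 and -0.17 against 7.9e-04, and that of the S phase genes lies furthest left at -0.35.

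Genes listed as targets of p53, the transcription factor that ATM and CHK2 activate, moved in both directions, with 8 rises and 6 falls among 20 and a median of 0.0055. Whether the listed genes answer to p53 in these mouse cells was not tested. Fas, a death receptor gene, rose by 3.20 ± 0.24, Cdkn1a, the inhibitor of cyclin-dependent kinases, by 0.76 ± 0.12 and Gadd45a, a stress gene, by 0.70 ± 0.19 (limma adjusted p = 3.13e-07, 5.57e-05 and 0.000272). Ddb2 and Xpc, which are members and also on this list, fell, and so did Phlda3 at -0.68 ± 0.18 (adjusted p = 0.000303), named after its value was seen. Bbc3, which promotes cell death, was at -0.12 ± 0.057 (adjusted p = 0.0834). Fas and Cdkn1a are known to respond to other signals as well.

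The table holds ratios, so the level of a cell type's markers could not be read. All 6 macrophage markers that were measured (Csf1r, Cd14, Cd68, Lyz2, Adgre1 and Fcgr1) had values, with 3 higher and 1 lower. Among 17 measured markers of T cells, B cells, fibroblasts, epithelium and endothelium, 2 were higher, Cd4 (0.23 ± 0.12) and Kdr (0.80 ± 0.36), both named after their values were seen, and 0 lower. Their part in the results above was not tested.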

How the data were processed

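RNA of untreated and treated cells was compared on 6 two-colour arrays, 3 per dye orientation. The authors deposited log2 ratios, 1 per probe and array, for 16281 probes. The base was inferred, since the highest entry equals log2 of 100, and the median of every array was 0 as deposited. Scanner, background correction and normalization are not given in the sources used here, and with no intensities dim spots could not be filtered. Exact zeros (1254 to 2086 per array) were taken as not measured. Ratios were multiplied by -1 where Cy3 held the treated RNA; as deposited, arrays of opposite orientation correlated at -0.69 to -0.26 across probes, those of the same at 0.65 to 0.76.

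Symbols came from the platform annotation (13738 probes with 1 symbol, 52 with several, 2491 with none) and all 75 member probes matched GRCm38.p6 by Entrez Gene ID. Fully measured probes (6 arrays) were averaged per gene (11364 features), orientations were averaged within each set, and the set means (n = 3) were compared with 0 in limma 3.58.1 in R 4.3.3 (lmFit and eBayes, two-sided, Benjamini-Hochberg over all features, threshold 0.05). Reading a set as a dye swap of 1 RNA pair is an assumption. The script was tested on simulated data with 3 independent set values per feature. These held no dye effect and no opposite deviations of arrays within a set. That test therefore cannot show that the p-values hold for these arrays.

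The rule for members uses symbols only, but it, the lists and the alternatives were written with earlier results of these data known. Genes named with values were, per role, up to 4 called and 2 uncalled members with the largest change, with fixed kinases and repair genes and members measured in part; other members are given by value, and per further list up to 3 called genes and 1 uncalled. Alternatives covered centring, scaling, the set block, each orientation, each set left out, missing values, single probes, a robust prior and other thresholds.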

Additional observations from a re-analysis of the deposited data

Results flagged for a closer look

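Ogg1 and Nbn stood out because every array of one dye orientation lay on the opposite side of 0 from every array of the other. Ogg1 was at 0.12 with treated RNA in Cy5 and at -0.27 with it in Cy3, and Nbn at -0.22 and 0.24. The difference between orientations was not tested. This pattern held for 2 of 58 members (3.45%) and for 13% of all features.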

How the results depend on the processing

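The main counts were 30 members lower and 3 higher, and 1708 features lower and 1586 higher. They stayed within 1.5 times under centring, scaling, a robust prior, the looser filter on missing values and single probes. The filter on shared sign left 28 members, 22 of them lower, and 3153 features, 1449 of them lower. It selects on the same ratios that are then tested, so its counts cannot serve as a check. With treated RNA in Cy5 alone 16 members and 894 features were lower and 931 features higher. With it in Cy3 alone 16 members and 1079 features were lower, and 5 members and 1303 features higher. With exact zeros kept as values 18 of 60 members and 1219 of 13241 features were lower. Against a 1.5-fold change 2 members and 35 features were lower and 261 features higher. With 1 set left out, 25 to 26 members were lower and 3 to 4 higher, and 1347 to 1464 features lower and 1271 to 1479 higher. These fits rest on 2 sets each, and the one without set 2 gave limma adjusted p as low as 4.72e-45 (Parp14).

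Same-numbered arrays did not deviate together once turned to treated over untreated (correlations of -0.48, -0.51 and -0.020 in sets 1 to 3), so the numbers do not pair the arrays as repeats of 1 RNA pair would. The Cy5 array of set 1 correlated with the Cy3 array of set 2 at 0.45, and that of set 2 with the Cy3 array of set 1 at 0.53. With no replicate block (6 arrays and a dye term), 29 members were lower and 4 higher, against 1593 features lower and 1554 higher. With the set as a random block the members were 30 and 4, against 1751 features lower and 1661 higher. The added rise was that of Rad17 in both. The calls of Rad51d (adjusted p = 0.13 and 0.0793) and Rad54l2 (0.117 and 0.0782) were lost in both fits.

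Of 596 values of 43 named genes under alternatives, 519 kept direction and side of the threshold, 46 lost the call, 15 gained it and 16 changed sign. The sign changes were Atr (0.095), Mlh3 (0.043), Xrcc5 (0.069) and Xrcc6 (-0.063) on the Cy3 arrays alone; Brca2 (-0.11), Ddb1 (-0.012), Ogg1 (0.12), Rad17 (-0.0047) and Rad23b (-0.10) on the Cy5 arrays alone; Ddb1 (-0.0095), Xrcc5 (0.0057) and Xrcc6 (-0.021) without set 1; Rad23b (-0.015) and Xrcc6 (-0.024) without set 2; Xrcc6 after scaling (-0.0053); and 1 Brca2 probe (-0.61). Without 1 set, Ddb1 ran up to 0.16, Rad23b to 0.16 and Xrcc6 to 0.087, and Xrcc5 down to -0.026. None of these genes was called in the main test. Outside these 43, Wrn, which was called lower, turned sign on the Cy3 arrays alone (0.035), the only 1 of the 33 called members to do so under these alternatives. The cause of these differences was not tested. Most falls were under 1.5-fold, and without intensities the precision for dim probes is unknown.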
